A study of Homo sapiens with 2 samples.

Results

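HUCCT-1 cells, an established human line from intrahepatic cholangiocarcinoma, were profiled for 39 interferon-stimulated genes, all of which were found by symbol among the 16654 genes with FPKM values. They were taken by name from a list of such genes that was drawn up with earlier results of these data known. The cells were grown in RPMI1640 with fetal bovine serum and given either vehicle or 5 µM XY101, an antagonist of the nuclear receptor RORγ, for 48 h. The comparison rests on 1 vehicle library and 1 XY101 library of poly(A)-selected RNA from the same line, with no transgene or knockdown, and asks what transcripts change when RORγ is antagonized. The values are FPKM, fragments per kilobase of transcript per 1000000 mapped fragments, so levels of different genes can be compared per length. Since each condition was a single library, no replicate check or test was possible, and each value describes these libraries alone. Both libraries held an approximate depth of 17000000 to 17500000 fragments, judged from the spacing of low FPKM values, with 14666 and 14719 genes above 0 FPKM. All 8 biliary epithelial markers were measured at 7.41 FPKM or more, led by KRT7 at 5080.23 and 4184.91 FPKM, with a median log2 ratio of -0.21 over the list. The ends of that list were MUC1 (9.32 and 29.24 FPKM, log2 ratio 1.64) and SOX9 (14.61 and 7.41 FPKM, log2 ratio -0.97). The pan-leukocyte gene PTPRC was at 0.02 FPKM with vehicle and listed at 0 with XY101, and IL3RA, the only plasmacytoid dendritic cell marker of the list in the table, was listed at 0 in both. Of 6 immune markers in the table, 4 were below 1 FPKM, and the others were CD14 (2.21 and 3.96 FPKM) and CD68 (63.58 and 47.17 FPKM). Whether these marker differences had a part in the ratios was not tested.

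Interferons are secreted proteins that put cells into an antiviral state. Type I and type III interferons act through the kinases JAK1 and TYK2, which activate STAT2. STAT2 and IRF9 are parts of the complex ISGF3, which binds the interferon-stimulated response element (ISRE) in promoters. Interferon gamma instead acts through the gamma-activated site (GAS). The genes switched on encode blocks to viral entry, replication and release, sensors of foreign nucleic acid, and the transcription factors of the response itself. Some tumor cell lines keep a low level of this program without any added interferon.

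The promoters were examined first, because they show what the genes share apart from their names. RefSeq promoter windows (GRCh38.p14, 250 bases before to 50 bases after each transcription start) were matched for 32 of the 39 genes by gene ID. The ISRE core was searched as GAAA, any 2 bases and GAAA, on both strands, and GAS as TTCNNNGAA, which reads alike on both strands. An ISRE core was found near 24 of the 32 genes, 75.0%, against 3.57% of all 35116 windows in the table. A GAS match was found near 10 of the 32 genes, 31.3%, against 7.66% of all windows and 8.29% of those 8975 genes. Of the 32 genes, 6 held both, 4 held neither, and 15 held at least 2 ISRE cores in 1 window. The half-site AGGTCA, the core bound by ROR receptors, was found on either strand near 3 of the 32 genes (IRF9, IFI27 and MX1). That is 9.38%, against 13.8% of all windows and 13.6% of those 8975 genes. A match of letters is a description of the window and not evidence of binding.

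The windows of the ISRE-bearing genes with the 4 highest ratios of XY101 to vehicle are printed below in that order, because they carry the element through which the program is known to run. ISRE cores and GAS matches are in capitals, and each window reads 5′ to 3′ along the gene. They lie at chr3:122564251-122564550 on the minus strand (PARP9), chr3:122680589-122680888 on the plus strand (PARP14), chr7:93117930-93118229 on the minus strand (SAMD9) and chr14:94110486-94110785 on the plus strand (IFI27), all in GRCh38.p14.
PARP9 promoter: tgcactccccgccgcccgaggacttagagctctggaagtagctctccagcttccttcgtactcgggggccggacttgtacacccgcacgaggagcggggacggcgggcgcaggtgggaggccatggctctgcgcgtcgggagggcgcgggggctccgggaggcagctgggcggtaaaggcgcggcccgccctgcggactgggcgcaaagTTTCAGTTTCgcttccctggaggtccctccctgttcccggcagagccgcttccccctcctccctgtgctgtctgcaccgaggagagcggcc
PARP14 promoter: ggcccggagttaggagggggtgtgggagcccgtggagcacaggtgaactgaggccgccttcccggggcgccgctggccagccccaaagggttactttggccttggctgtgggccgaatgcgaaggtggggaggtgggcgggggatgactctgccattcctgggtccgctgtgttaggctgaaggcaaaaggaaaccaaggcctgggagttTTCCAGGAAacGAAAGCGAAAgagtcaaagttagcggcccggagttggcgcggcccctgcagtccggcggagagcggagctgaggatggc
SAMD9 promoter: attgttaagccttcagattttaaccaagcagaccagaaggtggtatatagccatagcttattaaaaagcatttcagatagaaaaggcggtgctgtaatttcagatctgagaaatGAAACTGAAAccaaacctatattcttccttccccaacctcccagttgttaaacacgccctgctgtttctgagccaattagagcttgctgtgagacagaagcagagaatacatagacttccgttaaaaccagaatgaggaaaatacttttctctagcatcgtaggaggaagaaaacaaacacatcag
IFI27 promoter: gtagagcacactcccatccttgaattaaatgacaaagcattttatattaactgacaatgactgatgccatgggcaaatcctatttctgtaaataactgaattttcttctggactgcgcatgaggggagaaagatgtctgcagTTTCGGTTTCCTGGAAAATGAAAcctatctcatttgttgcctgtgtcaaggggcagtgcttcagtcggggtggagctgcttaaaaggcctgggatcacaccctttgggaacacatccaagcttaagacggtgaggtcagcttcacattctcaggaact
In the IFI27 window an ISRE core on each strand overlapped a GAS match between them, which gives 1 unbroken run of capitals. In the PARP14 window a GAS match lay just before the ISRE core. The window of a further PARP9 start held no match. PARP9 and DTX3L are transcribed away from each other on opposite strands, and their windows shared 137 bases. The ISRE core of both windows was the same 10 bases, chr3:122564332-122564341, which begin 41 bases before the PARP9 start and 6 bases before the DTX3L start.

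For comparison, the next windows belong to the 2 ISRE-bearing genes with the lowest ratios among those whose mean FPKM reached 1. They lie at chr11:320811-321110 on the minus strand (IFITM3) and chr15:88638766-88639065 on the plus strand (ISG20) in GRCh38.p14.
IFITM3 promoter: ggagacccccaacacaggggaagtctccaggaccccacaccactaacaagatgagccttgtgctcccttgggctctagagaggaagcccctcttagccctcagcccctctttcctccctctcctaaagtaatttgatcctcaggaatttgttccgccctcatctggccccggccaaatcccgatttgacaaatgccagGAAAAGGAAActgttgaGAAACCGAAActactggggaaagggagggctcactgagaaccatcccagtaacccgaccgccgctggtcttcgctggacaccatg
ISG20 promoter: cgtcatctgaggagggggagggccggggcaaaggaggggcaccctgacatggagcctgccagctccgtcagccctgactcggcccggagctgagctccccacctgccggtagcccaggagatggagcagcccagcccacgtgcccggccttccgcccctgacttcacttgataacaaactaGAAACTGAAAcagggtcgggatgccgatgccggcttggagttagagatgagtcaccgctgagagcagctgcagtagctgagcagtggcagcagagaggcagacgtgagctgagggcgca
The IFITM3 window held 2 ISRE cores and the ISG20 window 1. Only windows with an ISRE core were printed, so its presence in all of them follows from that choice. IFITM2 and IRF7, with ratios below that of IFITM3, had no matched window.

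**Figure D1:**
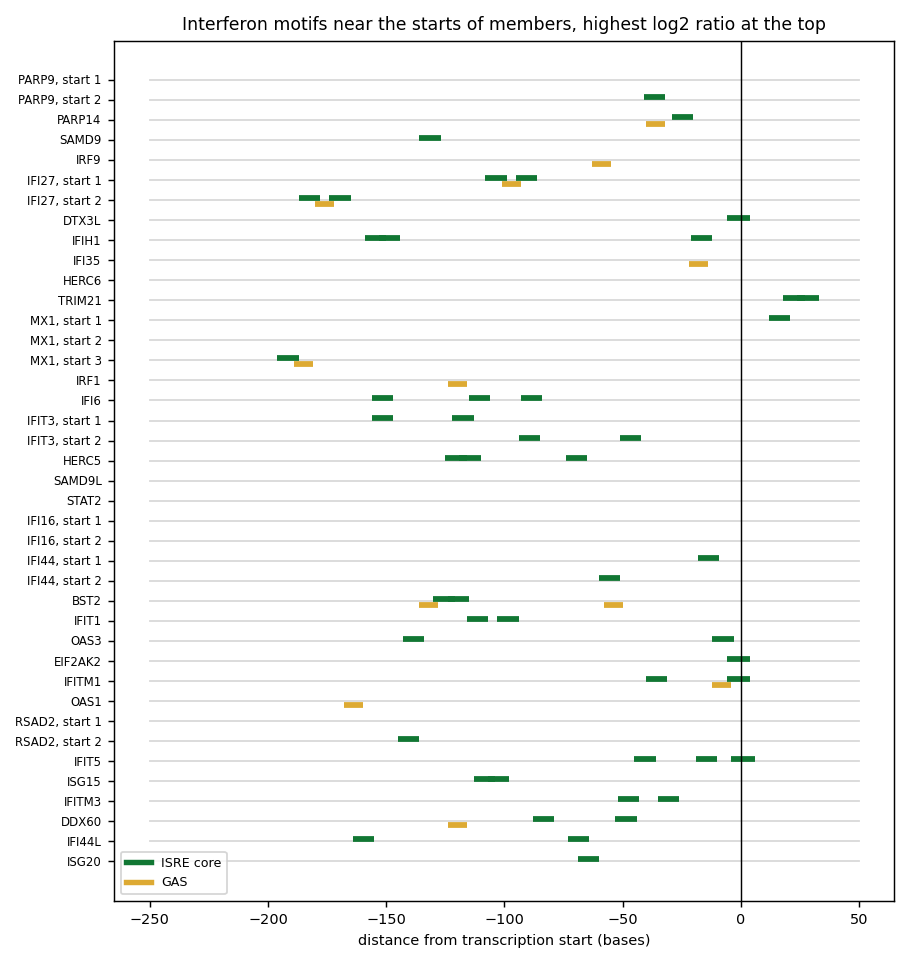
Positions of ISRE cores (green) and GAS matches (yellow) in the promoter windows of 32 interferon-stimulated genes, in bases from the transcription start, with genes ordered by log2 ratio of XY101 to vehicle from the highest at the top. Genes with several RefSeq starts have a line for each; most matches lie within 200 bases before the start, for genes at the top and at the bottom alike.

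Most of these genes were expressed in the vehicle library at levels that ranged from 0 to 638.05 FPKM. A mean FPKM of at least 1 over both libraries was reached by 31 of the 39 genes. The other 8 (DDX60, USP18, MX2, SAMD9L, OASL, IFI44L, HERC5 and RSAD2) lay below it, and of these RSAD2 was listed at 0 in both libraries. IFITM3, IFI27, BST2 and ISG15 were the 4 genes above 100 FPKM, and IFITM3 ranked 179th of 16654 genes in the vehicle library. The genes that encode sensors, IFIT proteins and oligoadenylate synthetases all lay below 10 FPKM in both libraries. Summed over the 39 genes, the level was 1660.56 FPKM under vehicle against 1814.62 FPKM under XY101, a difference of 154.06 FPKM. IFI27 alone differed by 154.26 FPKM, so the remaining genes summed to nearly the same level in both libraries.

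**Figure D2:**
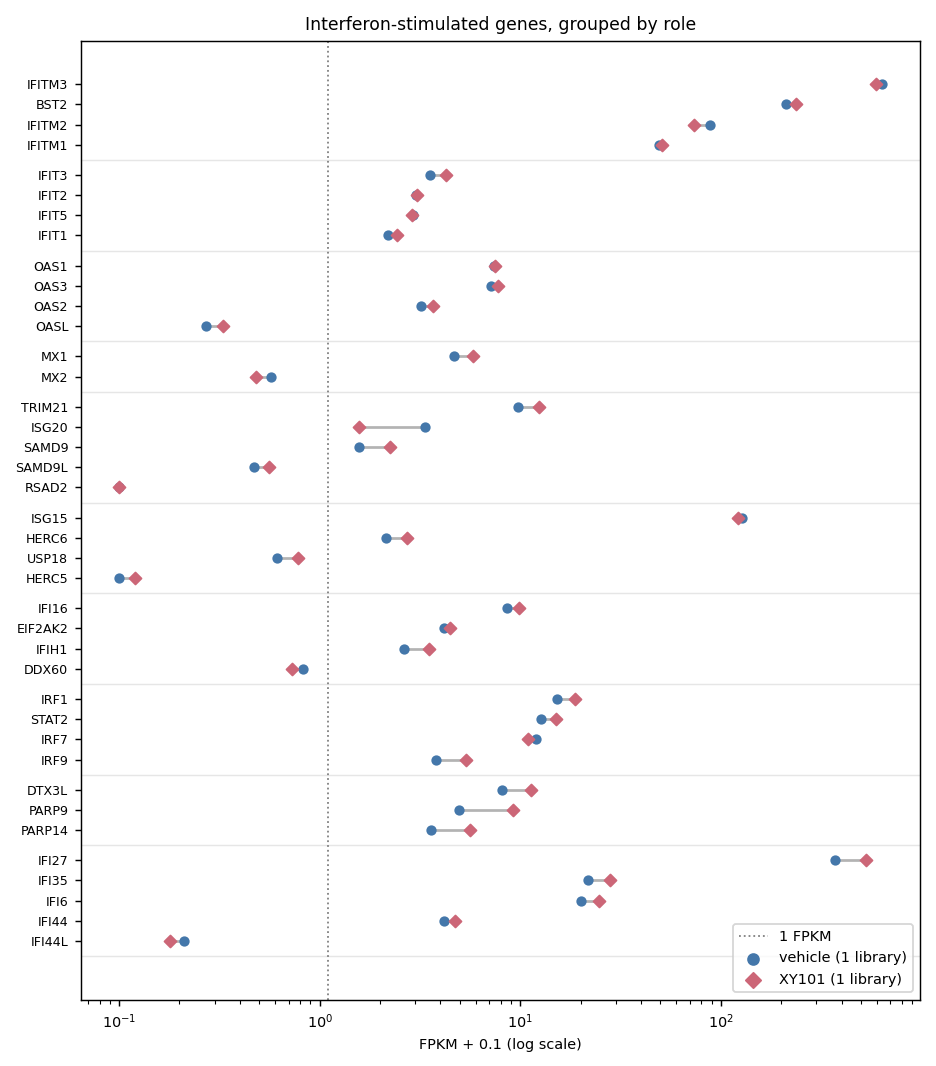
FPKM plus 0.1 on a log scale for each of the 39 interferon-stimulated genes in the vehicle library (blue circle) and the XY101 library (red diamond), grouped by role, with 1 FPKM dotted. Circle and diamond lie close together for most genes, and the widest gaps on this scale belong to ISG20 (3.24 and 1.48 FPKM) and PARP9 (4.86 and 9.15 FPKM).

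Differences were expressed as log2((XY101 + 0.1)/(vehicle + 0.1)), which understates the change of genes with low FPKM. Of the 31 genes at a mean FPKM of at least 1, none was at least 2-fold higher with XY101, where 1.17% of all 10894 genes at that level were. ISG20 was at least 2-fold lower, where 0.698% of all genes were. At 1.5-fold, 2 were higher (PARP9 and PARP14), against 4.9% of all genes, and 1 was lower (ISG20), against 2.32%. Of the 31, 25 had a ratio above 0, as did 64.4% of all genes, and 22 lay above the median gene, whose own log2 ratio was 0.09. The median log2 ratio of the 31 genes was 0.20. It was 0.10 once ratios were centred on the median gene. The number above 0 was 22 after that centring, 22 after scaling by the upper quartile and 26 after scaling each library to the same FPKM sum. In all, 13 of the 31 lay within the interquartile range of all genes, -0.08 to 0.26, with 14 above it and 4 below it.

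PARP9 and PARP14 had the highest ratios of the set and lie beside DTX3L on chromosome 3. The ratios of SAMD9, IRF9 and IFI27 lay above that of DTX3L. PARP9 is a member of the ADP-ribosyltransferase family that works in a complex with the ubiquitin ligase DTX3L, and PARP14 adds single ADP-ribose units to proteins. PARP9 (NCBI gene 83666) was 4.86 FPKM under vehicle against 9.15 FPKM under XY101, 1.88-fold higher (log2 ratio 0.90), which ranked 169th of 10894 ratios. PARP14 was 3.51 FPKM and 5.54 FPKM, 1.58-fold higher (log2 ratio 0.64). DTX3L was 8.02 FPKM and 11.23 FPKM, 1.40-fold higher (log2 ratio 0.48). All 3 were thus higher with XY101, and each ratio lay above that of the median gene after centring, at 0.81, 0.55 and 0.39. At the approximate depth, the PARP9 values equal some 228 and 440 fragments of a coding transcript of median length, with a 95% counting interval of the log2 ratio from 0.68 to 1.15 (exact binomial, counting error only). With the shortest coding transcript that interval ran from 0.15 to 1.71. The intervals at the median length were 0.41 to 0.90 for PARP14 and 0.30 to 0.67 for DTX3L, and with the shortest coding transcript both took in 0. A further RefSeq start of PARP9 lies past the DTX3L start, so PARP9 transcripts from it cross DTX3L on the opposite strand. Whether counting used strand was not given in the sources used here, and without it such reads of the pair cannot be told apart.

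The transcription factors of the response were expressed in both libraries. IRF9, the DNA-binding subunit of ISGF3, was 3.70 FPKM under vehicle against 5.29 FPKM under XY101, 1.43-fold higher (log2 ratio 0.50). STAT2, its partner, was 12.65 FPKM and 14.98 FPKM, 1.18-fold higher. IRF1, which interferon gamma induces through GAS, was 15.09 FPKM and 18.74 FPKM, 1.24-fold higher. IRF7, which drives transcription of interferon genes, was 11.83 FPKM and 10.79 FPKM, 1.10-fold lower. The counting interval of IRF9 ran from 0.11 to 0.94 at the median coding length and took in 0 with the shortest coding transcript, from -0.06 to 1.11. The STAT2 interval, 0.11 to 0.38, lay above 0 at either length. Those of IRF1, -0.22 to 0.86, and IRF7, -0.36 to 0.10, took in 0 at the median length. With the longest coding transcript the IRF1 interval, 0.18 to 0.45, lay above 0, and that of IRF7, -0.35 to 0.09, still took in 0. STAT2, IRF9 and IRF1 thus lay above the median gene and IRF7 below it.

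The effectors that act at membranes included the most abundant transcript of the set, and their median log2 ratio, -0.02, was the lowest of the role groups. IFITM3, which blocks fusion of enveloped viruses with endosomes, was 638.05 FPKM under vehicle against 596.21 FPKM under XY101 (log2 ratio -0.10). IFITM2 was 88.28 FPKM and 73.19 FPKM (log2 ratio -0.27), and IFITM1, which acts mainly at the cell surface, was 49.14 FPKM and 51.03 FPKM (log2 ratio 0.05). These 3 genes are close copies of each other, so their reads may be divided unevenly, and their sum was 775.47 FPKM against 720.43 FPKM. The sign of IFITM1 turned after centring on the median gene, to -0.04, and after scaling by the upper quartile, to -0.01. BST2, or tetherin, which holds budding virions on the cell surface, was 212.31 FPKM and 237.32 FPKM (log2 ratio 0.16), close to the median gene.

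The IFIT proteins bind viral RNA and hinder its translation. IFIT3 was 3.44 FPKM under vehicle against 4.18 FPKM under XY101 (log2 ratio 0.27), the highest ratio of this family. IFIT1 was 2.10 FPKM and 2.34 FPKM (log2 ratio 0.15). IFIT2 was 2.91 FPKM and 2.96 FPKM, and IFIT5 was 2.82 FPKM and 2.80 FPKM. The counting intervals of all 4 took in 0 at the median coding length. With the longest coding transcript that of IFIT3, 0.02 to 0.55, lay above 0. The signs of IFIT2 and IFIT5 depended on the scaling.

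Oligoadenylate synthetases make the messenger that activates RNase L. OAS1 was 7.26 FPKM under vehicle against 7.37 FPKM under XY101. OAS2 was 3.12 FPKM and 3.57 FPKM, and OAS3 was 7.05 FPKM and 7.65 FPKM. OASL, which lacks the synthetase activity and aids RNA sensing, was at 0.17 FPKM and 0.23 FPKM. The ratios of OAS1, OAS2 and OAS3 ran from 0.02 to 0.19, within the interquartile range of all genes, and the sign of OAS1 turned after centring (-0.07) and after scaling by the upper quartile (-0.04). The dynamin-like GTPase gene MX1, whose product traps viral nucleocapsids, was 4.57 FPKM and 5.71 FPKM (log2 ratio 0.32). MX2, which blocks nuclear entry of HIV, was 0.47 FPKM and 0.38 FPKM.

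ISG15, a ubiquitin-like protein joined to other proteins, had similar FPKM in both libraries but lay below the median gene. It was 127.73 FPKM under vehicle against 121.97 FPKM under XY101 (log2 ratio -0.07, and -0.16 after centring on the median gene). HERC5, the main human ligase for ISG15, was listed at 0 with vehicle and at 0.02 FPKM with XY101. HERC6, which has that role in mouse, was 2.05 FPKM and 2.64 FPKM (log2 ratio 0.35). USP18, which removes ISG15 and dampens the type I receptor, was 0.51 FPKM and 0.68 FPKM. Thus the ISG15 transcript was abundant while that of HERC5 was at or near 0 in both libraries. Whether ISG15 was joined to other proteins was not measured.

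All 3 nucleic acid sensors or helpers at a mean FPKM of at least 1 lay above the median gene. IFIH1, or MDA5, which senses long duplex RNA, was 2.54 FPKM under vehicle against 3.40 FPKM under XY101 (log2 ratio 0.41). IFI16, a sensor of DNA, was 8.53 FPKM and 9.78 FPKM (log2 ratio 0.20). EIF2AK2, or PKR, which halts translation when it meets duplex RNA, was 4.06 FPKM and 4.38 FPKM (log2 ratio 0.11). DDX60, a helicase described as a helper of RNA sensing, was 0.73 FPKM and 0.63 FPKM. The IFI16 and EIF2AK2 intervals took in 0, from -0.08 to 0.47 and from -0.04 to 0.26, and that of IFIH1, 0.08 to 0.78, did so with the shortest coding transcript, from -0.09 to 0.94.

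The remaining effectors held the lowest ratio of the set. ISG20, an exonuclease that degrades single-stranded RNA, was 3.24 FPKM under vehicle against 1.48 FPKM under XY101, 2.19-fold lower (log2 ratio -1.08), and ranked 10834th of 10894 ratios. On a coding transcript of median length these values equal some 50 and 23 fragments, with a counting interval from -1.93 to -0.41 that reached 0.14 with the shortest one. With a pseudocount of 1 FPKM the log2 ratio of ISG20 was -0.77 and no longer reached 2-fold. SAMD9, which restricts poxviruses, was 1.47 FPKM and 2.15 FPKM (log2 ratio 0.52), and its neighbor SAMD9L was 0.37 FPKM and 0.46 FPKM. TRIM21, a cytosolic antibody receptor and ubiquitin ligase, was 9.69 FPKM and 12.32 FPKM (log2 ratio 0.34). RSAD2, or viperin, which makes a chain-terminating nucleotide, was listed at 0 in both libraries.

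All 4 of the other IFI genes at a mean FPKM of at least 1 had ratios above that of the median gene. IFI27, a small mitochondrial protein gene, was 372.48 FPKM under vehicle against 526.74 FPKM under XY101, 1.41-fold higher (log2 ratio 0.50, counting interval 0.42 to 0.58). IFI35, whose product binds NMI, was 21.59 FPKM and 28.01 FPKM (log2 ratio 0.37). IFI6, an endoplasmic reticulum protein gene, was 20.04 FPKM and 24.59 FPKM (log2 ratio 0.29). IFI44 was 4.07 FPKM and 4.63 FPKM (log2 ratio 0.18), and its neighbor IFI44L was 0.11 FPKM and 0.08 FPKM. IFI27 therefore stood out by its absolute difference, and PARP9 by its ratio.

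**Figure D3:**
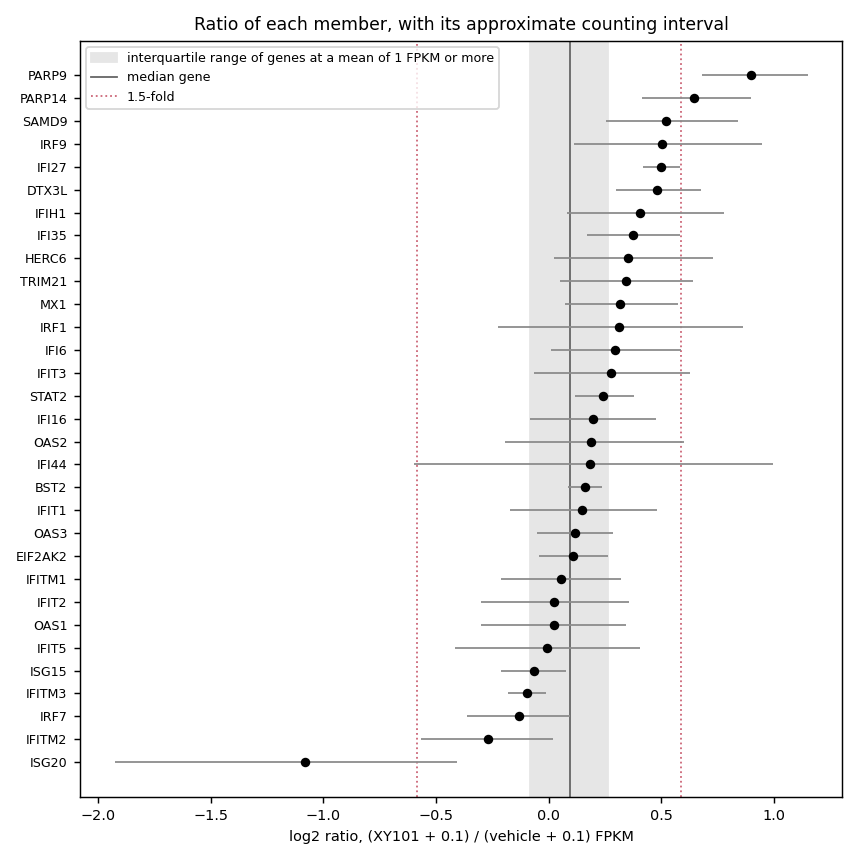
Log2 ratio of XY101 to vehicle for the 31 interferon-stimulated genes at a mean FPKM of at least 1 (points), with approximate 95% counting intervals at the median coding transcript length (lines), the median gene (0.09), the interquartile range of all genes (grey) and 1.5-fold (dotted). PARP9 (0.90) and PARP14 (0.64) lie beyond the 1.5-fold line on the right and ISG20 (-1.08) beyond it on the left.

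At the median coding transcript length, the counting interval lay wholly above the median gene for 8 of the 31 genes and wholly below it for 4. With the shortest coding transcript these counts were 4 (SAMD9, PARP9, IFI27 and IFI35) and 3 (IFITM2, IFITM3 and ISG15), and with the longest 12 and 5. These intervals cover counting error only and say nothing of the spread between cultures. They were not computed for all genes, so the counts have no background share beside them and are not read as particular to the set. The ratios also varied with the level of the genes. The 13 genes with a mean FPKM from 1 to below 5 had a median log2 ratio of 0.19, the 12 from 5 to below 50 one of 0.30, and the 6 at 50 or more one of -0.01. Over all genes the medians in the same ranges were 0.16, 0.10 and 0.00.

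Several of the genes lie side by side, and 21 of the 39 fell into 8 runs of neighbors with at most 2 other coding genes between members. Within the IFIT run on chromosome 10 the log2 ratios ran from -0.01 to 0.27, and within the OAS run on chromosome 12 from 0.02 to 0.19. The IFITM run on chromosome 11 held ratios from -0.27 to 0.05. The chromosome 3 run of PARP9, DTX3L and PARP14 held ratios from 0.48 to 0.90 and did not overlap any of these 3 runs. It did overlap the SAMD9 and SAMD9L run on chromosome 7, at 0.25 to 0.52. The HERC run on chromosome 4 held ratios from 0.26 to 0.35, the MX run on chromosome 21 from -0.25 to 0.32 and the IFI44 run on chromosome 1 from -0.22 to 0.18. The low ends of the SAMD9, HERC, MX and IFI44 runs came from SAMD9L, HERC5, MX2 and IFI44L, all below a mean of 1 FPKM. For HERC5, at 0 and 0.02 FPKM, the ratio depends on the pseudocount. Measured by promoter content, the 20 genes with an ISRE core at a mean FPKM of at least 1 had a median log2 ratio of 0.23, and the 7 matched genes without one had a median of 0.31. With 15 of 20 and 6 of 7 above the median gene, genes on both sides of the median gene were found with and without the letters.

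The interferon genes themselves were at or near 0. Of 12 ligand genes listed, 4 were in the table and none reached 1 FPKM. IFNB1 and IFNL3 were listed at 0 in both libraries, IFNL1 was 0.12 FPKM in both, and IFNE was listed at 0 with vehicle and at 0.24 FPKM with XY101. All 6 receptor genes were expressed. IFNGR1, the ligand-binding chain for interferon gamma, was 12.79 FPKM under vehicle against 21.63 FPKM under XY101, 1.69-fold higher (log2 ratio 0.75). Its partner IFNGR2 was 70.98 FPKM and 65.67 FPKM (log2 ratio -0.11). The type I receptor chains were 7.02 FPKM and 9.55 FPKM for IFNAR1 (log2 ratio 0.44) and 7.11 FPKM and 8.23 FPKM for IFNAR2 (log2 ratio 0.21). The type III chains IFNLR1, at 4.51 FPKM and 4.77 FPKM, and IL10RB, at 25.05 FPKM and 26.59 FPKM, lay close to the median gene. Their log2 ratios were 0.079 and 0.086, against 0.093 for the median gene. The kinase genes were 31.48 FPKM and 36.37 FPKM for JAK1, 13.88 FPKM and 16.31 FPKM for TYK2 and 0.77 FPKM and 0.79 FPKM for JAK2.

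The pathway lists around the 39 genes showed a like mixture. Of 9 sensing genes at a mean FPKM of at least 1, none was at least 1.5-fold different. Of all genes, 4.9% were at least 1.5-fold higher and 2.32% lower, so with 9 genes this count says little. The kinase gene IKBKE was 33.43 FPKM under vehicle against 50.08 FPKM under XY101 (log2 ratio 0.58), just short of 1.5-fold. The RNA sensor RIGI, listed by its older symbol DDX58, was 1.94 FPKM and 2.8 FPKM (log2 ratio 0.51), while the RNA sensor DHX58 was 3.59 FPKM and 2.93 FPKM (log2 ratio -0.28) and the DNA sensor CGAS was 4.76 FPKM and 4.41 FPKM (log2 ratio -0.11). The feedback inhibitors of cytokine receptors had ratios of opposite sign. SOCS1 was 1.09 FPKM and 2.05 FPKM (log2 ratio 0.85) and SOCS3 was 47.49 FPKM and 34.7 FPKM (log2 ratio -0.45). Of the other inhibitors, PIAS1 had a log2 ratio of 0.24 and TRIM27 of 0.10. Among 29 further interferon-stimulated genes the median log2 ratio was 0.14. The death ligand gene TNFSF10, or TRAIL, was 4.44 FPKM and 11.43 FPKM, 2.57-fold higher, and LAMP3 was 4.1 FPKM and 5.97 FPKM. At the low end DDX60L was 10.93 FPKM and 6.18 FPKM, 1.77-fold lower, and BATF2 was 1.61 FPKM and 1.22 FPKM.

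Of 16 genes listed as mainly induced by interferon gamma, 15 were in the table and 5 of these lay below a mean of 1 FPKM. Among those 5, GBP5, CXCL10 and CXCL11 were lower with XY101 and GBP4 and IDO1 higher, all at 0.45 FPKM or less. The other 10 had the highest median of the pathway lists, 0.40, with 2 at least 2-fold higher, against 1.17% of all genes. These were the MHC class II gene HLA-DRA, at 2.24 FPKM under vehicle against 9.24 FPKM under XY101 (log2 ratio 2.00), and its transactivator CIITA, at 0.57 FPKM and 1.82 FPKM (log2 ratio 1.52). SOCS1 is also on this list. CIITA reached a mean of 1 FPKM only through its XY101 value, so that value placed it in the count and median of this list. The lowest were the checkpoint ligand gene CD274, or PD-L1, at 12.53 FPKM and 8.85 FPKM (log2 ratio -0.50), and the adhesion gene ICAM1, at 79.14 FPKM and 71.46 FPKM (log2 ratio -0.15). The class I presentation list had a median of 0.06 over 13 genes. Its ends were the immunoproteasome subunit gene PSMB10 (log2 ratio 0.36) with B2M (0.27), and NLRC5 (-0.29) with HLA-E (-0.15). Over all pathway lists together, 3 of 74 genes were at least 2-fold higher, against 1.17% of all genes, and none was at least 2-fold lower, against 0.698%. CIITA is 1 of the 3, and the lists were chosen with earlier results of these data known, so no excess is read from these shares.

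**Figure D4:**
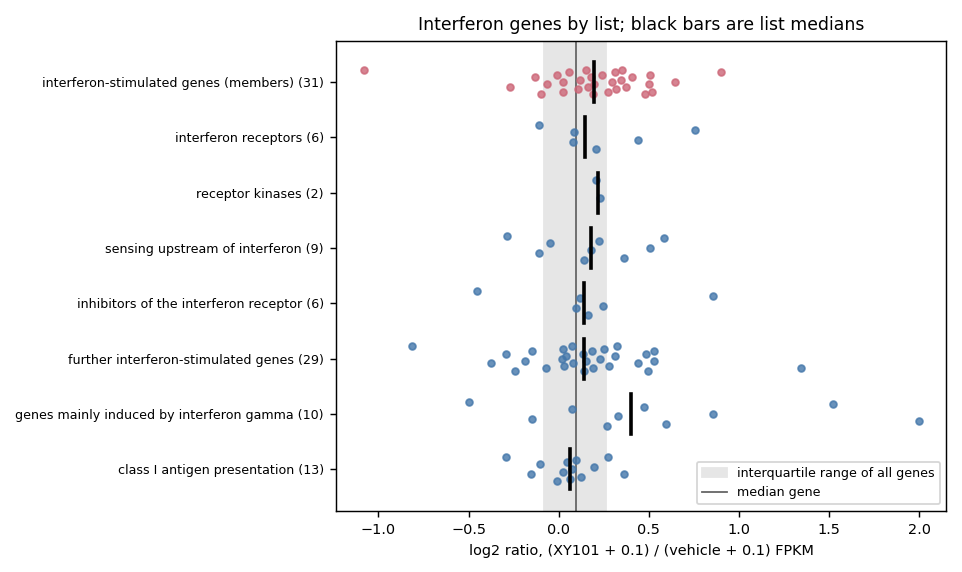
Log2 ratio of XY101 to vehicle for each gene at a mean FPKM of at least 1 in the interferon-stimulated set (red) and in 7 surrounding lists (blue), with list medians as black bars, the median gene as a line and the interquartile range of all genes in grey. The grey band describes single genes. The set's median (0.20) lies inside it, with 14 genes of the set above the band and 4 below it. The median of the interferon gamma list (0.40) lies beyond the band and includes CIITA, which reached the level only through its XY101 value.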

How the data were processed

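The deposited RNA-seq values are FPKM, given by the authors to 2 decimals. The paper's methods name GRCh37/hg19, BWA, Bowtie 2 and RSEM. The submitters' notes name GRCh38, HISAT2, HTSeq 0.11.2 and limma 3.40.6 per the labels, with no roles given. The accounts differ, so how reads of similar genes were divided is not settled. Of 17424 rows, 770 hold no gene and were left out. The vehicle sample was identified by its control title, and samples with other treatments named in the labels were not analysed here.

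The log2 ratio used a pseudocount of 0.1 FPKM. Genes counted had a mean FPKM of at least 1, with calls at 2-fold and 1.5-fold. With 1 library per group no test was run. The 39 genes, their roles and the pathway lists were chosen with earlier results of these data known. The text names all 39, every ligand or receptor gene above 0 FPKM, the kinases, and the 2 highest and 2 lowest ratios of each other list. Genes of the interferon gamma list below a mean of 1 FPKM are named as well. A further planned pathway gene is not reported here. Promoters printed are those of ISRE-bearing genes with the 4 highest and 2 lowest ratios among the genes counted. Missing symbols were matched through RefSeq (GRCh38.p14).

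Depth was estimated from FPKM values of genes with a single GENCODE release 44 transcript. At 17000000 fragments (vehicle) and 17500000 (XY101), 84.0% and 81.6% of values came out whole within 0.2 fragments, against at most 50.0% and 52.6% with lengths shuffled. Both the depth and the exact binomial intervals are approximate, because the lengths used by the authors are unknown. The calls at 2-fold were tried on simulated data, which did not cover the depth estimate or the intervals. Scripts ran on Python 3.11.15 with scipy 1.17.1, pandas 2.3.3, numpy 2.4.6 and, for plots, matplotlib 3.10.9.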

Additional observations from a re-analysis of the deposited data

How the results depend on the processing

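Of 47 alternative values of the counts and the median, 37 stayed within the limits set (1.5 times for a count, 0.1 for the median log2 ratio). With a pseudocount of 1 FPKM, 0 genes of the set were at least 2-fold lower, 1 was at least 1.5-fold higher and 110 genes in all differed at least 2-fold. With a mean FPKM of at least 5, the set had 0 genes at least 2-fold lower, 0 at least 1.5-fold lower and 1 at least 1.5-fold higher, with 87 genes in all past 2-fold, because ISG20 and PARP14 lie below that level. Without a filter 671 genes differed at least 2-fold, against 203 in the main comparison. After centring on the median gene, and after scaling by the upper quartile, 1 gene of the set (PARP9) was at least 1.5-fold higher. The median log2 ratio of the set ran from 0.10 to 0.26 over the 8 alternatives. Of 31 genes, 4 changed sign under some scaling (OAS1, IFIT2, IFIT5 and IFITM1), and none that was called at 1.5-fold did. No paired analysis was possible because each condition has 1 library. For genes of the set below a mean of 1 FPKM, every counting interval that could be computed took in 0 at the median coding length. Their fragments ran up to some 64 and 57, for DDX60.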

Other observations

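Genes next to the chromosome 3 run of PARP9, DTX3L and PARP14 were looked at after the values of the run had been seen. The 5 nearest coding genes on each side with a mean FPKM of at least 1 had log2 ratios from -0.29 (PDIA5, 34.96 FPKM under vehicle against 28.57 FPKM under XY101) to 0.50 (HACD2, 14.72 and 20.79 FPKM), with a median of 0.14. PARP9 and PARP14 lay above that range and DTX3L (0.48) within it.

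ISRE cores were also looked for in the windows of genes outside the set. Of 325 such genes at a mean FPKM of at least 1, 187 (57.5%) lay above the median gene and 20 (6.15%) were at least 1.5-fold higher, with a median log2 ratio of 0.15. Of 8623 genes with no ISRE core, 50.4% lay above the median gene and 4.67% were at least 1.5-fold higher, with a median of 0.10. These shares describe 1 library per condition and were not tested.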
